A study of Gallus gallus with 12 samples.

Results

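A block of chromosome Z near 27 Mb, from 26.98 to 27.31 Mb on the chicken genome build galGal4, was examined in the liver of chickens labelled ALV-J-resistant or ALV-J-susceptible. ALV-J is subgroup J of avian leukosis virus, a retrovirus of poultry. The assay, methylated DNA immunoprecipitation sequencing (MeDIP-seq), enriches DNA fragments that carry methylated cytosine, and a peak is a place where the enriched library exceeded an untreated input library of the same sample number. There were 3 immunoprecipitated libraries in each group. The resistant replicates 1, 2 and 3 carry the sample numbers 3, 4 and 26, and the susceptible replicates 1, 2 and 3 the sample numbers 8, 9 and 14. All samples were liver, and strain, age, sex and exposure to the virus are not given in the labels. A peak list has no gene expression by which the tissue could be checked.

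The members are all peaks that overlap the block, 320 of the 356324 peaks in the 6 lists. The block was chosen by measured values, namely its large peak-covered length in resistant replicate 3 and susceptible replicate 3 beside the other libraries. Contrasts between these libraries and the others are therefore descriptions, given with no test. The edges of the block fell in sparse sequence. The nearest peaks before it ended at 26890042 or earlier, and the first peaks inside it began between 26984718 and 26986314. After it, the nearest peak of any list began at 27513007, and the last inside it ended at 27303151.

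The Z chromosome is the sex chromosome that birds of both sexes carry, males as a pair and females singly beside a W. Its dosage is only partly balanced between the sexes. Chicken Z is known for a male-hypermethylated locus near DMRT1, a gene needed for testis development. There the DNA is heavily methylated in males, and in females it is less methylated and gives rise to long noncoding RNA. The working name of the block refers to this locus as a candidate. No galGal4 annotation or genome sequence was used, so no gene, exon or repeat is assigned to any position here, and the identity of the block was not tested. Sequencing depth is unknown for every list, and a place without a peak is one where none passed the authors' threshold.

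Values that move with the block on the sex chromosomes are given first. On Z outside the block, resistant replicate 3 had 62.9 kb and susceptible replicate 3 65.98 kb of peaks per Mb, beside 29.9 to 31.8 kb per Mb in the other libraries. On W, the same pair of libraries had 94 and 99 peaks, against 287 to 305 in the others. Covered length outside Z and W did not single them out, at 40.1 and 41.5 Mb beside 38.1 to 42.4 Mb. The part of these values in what follows was not tested, and in bulk tissue more copies of a sequence and more methylation per copy cannot be told apart.

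Peaks filled most of the block in one library of each group and little of it in the rest. Covered length was 24.6, 12.5 and 220.4 kb in resistant replicates 1 to 3 and 11.9, 15.4 and 195 kb in susceptible replicates 1 to 3. Resistant replicate 3 and susceptible replicate 3 thus had 66.8% and 59.1% of the block under peaks, and the other libraries had 3.59% to 7.44%. Peak numbers were 26, 15 and 117 in the resistant and 16, 18 and 128 in the susceptible libraries. The lower of the pair exceeded the highest of the others 4.5 times in peak number and 7.95 times in covered length.

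**Figure D1:**
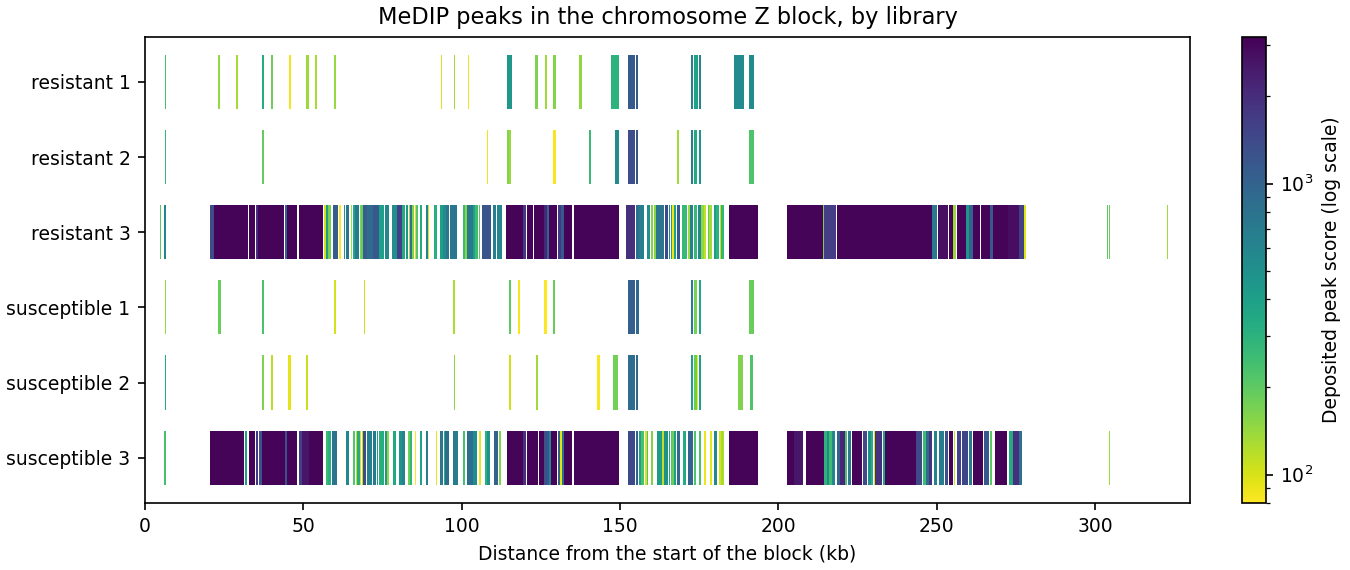
Each bar is a peak of the block, placed by its distance in kb from the block's first base, with 1 row per library and the deposited peak score as colour on a log scale. Resistant 3 and susceptible 3 have dense peaks, with gaps, between 20.6 and 278.0 kb, while the other 4 libraries have 15 to 26 scattered peaks, all ending by 192.2 kb.

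The peaks of the filled libraries were both wider and closer together. The median width was 991 bp in resistant replicate 3 and 931 bp in susceptible replicate 3, against 610 to 742 bp in the others, and whole lists had medians of 535 to 637 bp. In resistant replicate 3, 29 peaks reached 2000 bp, and in susceptible replicate 3, 22 did. The other libraries had 1 to 3 such peaks. The widest, at 27211713 to 27228599 in resistant replicate 3, measured 16887 bp and was the 6th widest of all 56120 peaks in its list. The widest of susceptible replicate 3 lay elsewhere, at 27115479 to 27129623, measured 14145 bp and was the 8th widest of 55599. In the other lists the widest peak of the block measured 2034 to 3299 bp. In the far end of Z median widths were 986 bp in resistant replicate 3 and 1034 bp in susceptible replicate 3, against 683 to 713 bp in the others. There, 431 and 470 peaks of the pair reached 2000 bp, against 91 to 108 in the others. Wide peaks of the pair were thus not confined to the block.

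Gaps were short in the same pair. The median gap between neighbouring peaks was 135 bp in resistant replicate 3, where 91 of 116 gaps were under 500 bp. It was 209 bp in susceptible replicate 3, where 88 of 127 were. Much of the block was a chain of peaks with short gaps in these lists, so peak number depends on where the caller split it. In the other libraries the median gap was 4889 to 13142 bp, and only 2 to 4 gaps were under 500 bp. The longest gap of resistant replicate 3 ran from 27258034 to 27283618 and that of susceptible replicate 3 from 27256985 to 27284444, both near the block's end. In the other lists the last peak left 137840 to 138058 bp empty up to the block's end. Their longest gaps between peaks lay in the first part, such as 70496 bp from 27017552 in resistant replicate 2. Those of resistant replicate 1 (33036 bp from 27040283), susceptible replicate 1 (27795 bp from 27049595) and susceptible replicate 2 (45889 bp from 27031548) overlapped there. In the far end of Z the median gap was also shorter in the pair. It was 543 bp in resistant replicate 3 and 518 bp in susceptible replicate 3, against 1523 to 1851 bp in the others.

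Midpoints of neighbouring peaks were a median of 1585 bp apart in resistant replicate 3, with quartiles of 943.5 and 2512 bp. In susceptible replicate 3 the median was 1524 bp, with quartiles of 978.5 and 2216 bp. These distances spread widely around their medians, and they depend on where the caller split a domain. For peaks no wider than 1500 bp the medians were 1163 and 1352 bp. In the far end of Z the medians over all peaks were 2035 and 2064 bp in the pair, against 2568 to 2851.5 bp in the others.

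The deposited score is the authors' own and is read here as -10 times the log10 of the p-value that the peak caller gave. A score of 3100 is read as a p-value reported as 0, so differences among scores of 3100 or more cannot be read. Under this reading a score of 3109.02, found in resistant replicate 3, would be a p-value above 0. Ranks by score nevertheless place it above 3100. Scores reached 3100 in 23 of the 117 peaks of resistant replicate 3 (19.7%) and 20 of the 128 of susceptible replicate 3 (15.6%), and in 0 peaks of the block in the other lists. Over their whole lists, 2.50% to 2.94% of peaks reached it. Ranked within its own list, the median peak of the block stood at percentile 82.8 in resistant replicate 3 and 82.1 in susceptible replicate 3. The median peak of the others stood at percentiles 43.1 to 61.0, near the middle of their lists. In the far end of Z it stood at 78.1 and 78.9 in the filled pair and 53.9 to 55.9 in the others. Scores reached 3100 there in 230 of 2397 and 199 of 2453 peaks of the filled pair, against 39 to 62 peaks in the others. High scores of the pair were thus not confined to the block.

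Merging of peaks that overlapped or touched across lists gave 100 regions in the block. Of these, 60 (60%) had a peak in resistant replicate 3 and susceptible replicate 3 only, whereas such regions made up 16.2% of the regions of Z outside the block and 1.53% of those of all chromosomes. The block was chosen on this contrast, so nothing is read from the difference. A peak in all 6 libraries was found in 9 regions (9%), against 33.5% of the regions of all chromosomes and 1646 of 5494 regions of Z outside the block. Regions with peaks of the pair alone made up most of the 100, which lowers this share, so nothing is read from it either. Another 15 regions had 3 to 5 libraries, 15 had resistant replicate 3 alone and 1 had susceptible replicate 3 alone.

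The smaller sets were nested in the larger ones. All 24 regions with a peak in any of the other 4 libraries also had one in both resistant replicate 3 and susceptible replicate 3. By bases, 97.3% to 99.8% of what the other libraries covered lay under peaks of resistant replicate 3 and 96.6% to 99.1% under peaks of susceptible replicate 3. Since the larger sets fill most of the block, much overlap was fixed by their size. Together the 4 libraries covered 29.4 kb, of which 7.14 kb was common to all 4 and 0.555 kb lay outside the peaks of both filled libraries. The filled libraries shared 191 kb, and 29.4 kb was covered in resistant replicate 3 but not in susceptible replicate 3, and 4.11 kb the reverse. Their Jaccard index, the shared length divided by the length covered in either, was 0.851 in the block, 0.569 in the left flank, 0.557 in the right flank and 0.657 on the rest of Z before its far end. In the far end of Z that index was 0.789. Among the other 4 libraries the 6 pairs had 0.373 to 0.554 in the block and 0.615 to 0.653 on that rest of Z. They had 0.442 to 0.817 in the left flank, where some of them lay above the filled pair. In the right flank they had 0 to 0.383. In the far end these pairs had 0.687 to 0.705. The index depends on how much of a segment is covered, so its values cannot be compared directly between segments.

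Cut into 33 bins of 10 kb, the block fell into sub-blocks of different make-up. Peaks of all 6 libraries were present in 7 bins, peaks of resistant replicate 3 and susceptible replicate 3 with some others in 10, and peaks of that pair only in 11. Of the remaining bins, 1 had resistant replicate 3 only and 4 had no peak. The longest run of one kind was 27180000 to 27259999, 80 kb in which only the pair had peaks. There, resistant replicate 3 had 73.4 kb (91.8%) under peaks, susceptible replicate 3 had 65.2 kb (81.5%), and each other library had 0 kb. A shorter run of the same kind, 27050000 to 27069999, had 15.3 and 12.0 kb covered in the pair. The last such bin, 27280000 to 27289999, had only 0.610 and 0.395 kb.

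The 80 kb run was set off by an interval without peaks in any list. The last peaks of the other libraries ended between 27171942 and 27172160, in a region at 27164341 to 27173669 that all 6 shared. No list had a peak in the following 8887 bp, from 27173670 to 27182556. From there on to 27258033 the pair had peaks, resistant replicate 3 alone from 27256985, and the others had none. Of the 60 regions confined to the pair, 15 began after this interval, the last of them at 27284445, and these 15 together spanned 74.1 kb. The 45 before it spanned 52.2 kb. Longer stretches empty in all lists were 13861 bp from 26986738, before the dense part began at 27000599, and 25585 and 17961 bp from 27258034 and 27284840, after it ended. Whether these intervals can be read by the aligner at all is not known from a peak list.

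Within the dense part, stretches of wide, high-scoring peaks alternated with stretches of narrower ones in both filled libraries. The bounds of these stretches were set after the bins had been seen. From 27000000 to 27039999, peaks covered 93.0% in resistant replicate 3 and 90.9% in susceptible replicate 3, with 7 and 6 peaks at a score of 3100 or more. From 27040000 to 27089999 coverage was 74.0% and 55.9%, and 0 peaks reached 3100 in either. Coverage was high again from 27090000 to 27129999, at 90.96% and 88.6%, with 6 such peaks in each. From 27130000 to 27179999 it was 68.9% and 58.5%, with 1 in each. The 80 kb run that followed had 9 and 7. In the narrower stretches median widths were 811 and 729 bp (27040000 to 27089999) and 865 and 687 bp (27130000 to 27179999). In the wider ones they were, in order of position, 1777 and 1131 bp, 1581 and 855 bp, and 2192 and 1084.5 bp. The contrast in width was thus smaller in susceptible replicate 3, and slight in its stretch from 27090000 to 27129999.

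The other libraries fell and rose in the same order over the first 3 stretches, at lower levels, and departed from it in the fourth. There, coverage of the pair was lower than in the third, whereas that of each other library was higher. Their coverage was highest from 27130000 to 27179999, at 20.7% and 14.7% in resistant replicates 1 and 2 and 12.4% and 16.6% in susceptible replicates 1 and 2. It was 5.94% to 17.6% from 27090000 to 27129999, 1.30% to 12.1% from 27000000 to 27039999 and 0.79% to 3.84% from 27040000 to 27089999. The fourth stretch includes most of the 8887 bp interval that was empty in all lists, and most of another of 2185 bp from 27129624. This lowers coverage there in every library.

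**Figure D2:**
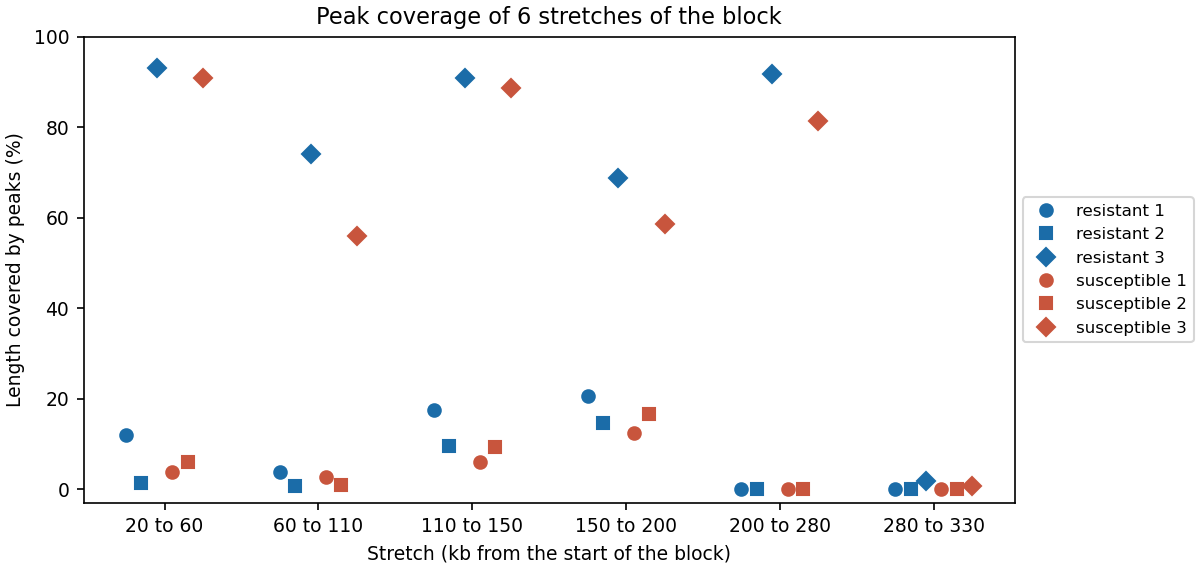
The vertical axis gives the percent of each stretch covered by peaks, and the horizontal axis 6 stretches by kb from the block's start, with 1 point per library. Resistant 3 and susceptible 3 lie between 55.9% and 93.0% in the first 5 stretches, and the other 4 libraries lie at or under 20.7% throughout and at 0 from 200 to 280 kb.

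The 9 regions with a peak in every library were compared by the highest score of each library in them. In 4 of the 9, both filled libraries scored above all others, and in 5 they did not. The highest-ranked region by its lowest score percentile, 88.6, was 27131809 to 27134844 (3036 bp). Its scores were 1144.61, 1330.76 and 1921.31 in resistant replicates 1 to 3 and 1059.78, 866.94 and 1407.69 in susceptible replicates 1 to 3. It was a strong peak in all libraries, and the pair stood above the rest by a small margin.

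The next region, 27134946 to 27135843 (898 bp), lay 101 bp further on. Its scores were 1145.91, 1187.21 and 845.50 in the resistant and 906.76, 919.84 and 1058.97 in the susceptible libraries, in the same order. Here resistant replicate 3 had the lowest score of the 6, and covered length was alike, at 745 to 893 bp. A second set of shared regions lay at 27151409 to 27153134, 27153260 to 27154644 and 27154682 to 27155615. In the first of them scores were 621.92, 643.24 and 650.48 in the resistant and 701.60, 387.29 and 993.43 in the susceptible libraries. In the second they were 390.54, 342.90 and 265.34, and 169.47, 187.20 and 222.89. In the third they were 604.41, 463.86 and 586.41, and 362.69, 392.41 and 234.44. The libraries were mixed in all 3, and in the third susceptible replicate 3 was lowest.

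The isolated region at 26986098 to 26986737 (640 bp), before the dense part, was also mixed. Scores there were 239.04, 276.80 and 627.31 in the resistant and 144.99, 341.81 and 241.25 in the susceptible libraries. Resistant replicate 3 was highest, and susceptible replicate 3 lay among the others.

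The remaining 3 shared regions looked different. At 27015748 to 27024059, 27094135 to 27099406 and 27164341 to 27173669 both filled libraries reached 3100, while the others scored 162.58 to 335.49, 104.49 to 448.25 and 186.43 to 545.27. In the filled libraries peaks covered 4986 bp or more of each region, as 1 peak except in susceptible replicate 3 at 27015748, which had 2. The others had peaks on 509 to 1305, 671 to 1275 and 1292 to 4580 bp. At 27015748 and 27094135 the peaks of the other libraries were thus small parts of a wide domain of the pair. At 27164341 they were larger parts in some, with 4580 of 9329 bp in resistant replicate 1 and 2805 bp in susceptible replicate 2. The 3 regions were grouped after the values were seen.

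**Figure D3:**
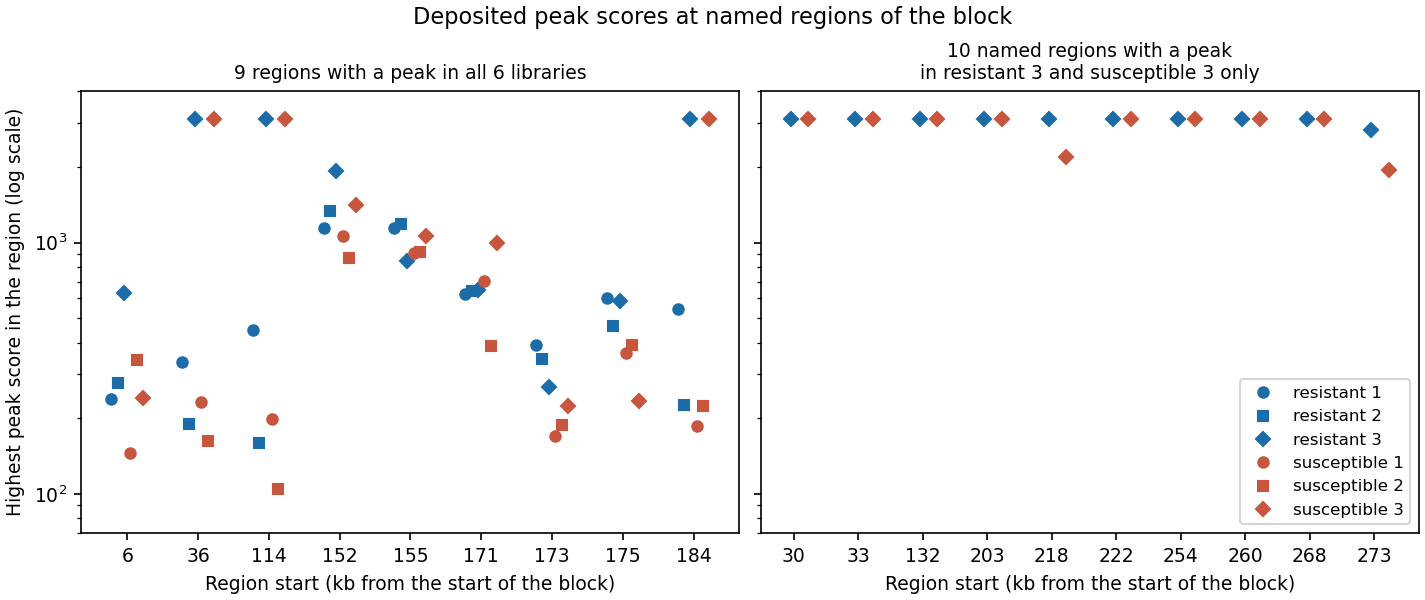
The vertical axis gives the highest deposited peak score of a library in a region, on a log scale, and the horizontal axis the region's start in kb from the block's start, for the 9 regions found in all libraries and the 10 named regions found in resistant 3 and susceptible 3 only. At 155 to 175 kb the pair is mixed with the others, and at 36, 114 and 184 kb resistant 3 and susceptible 3 lie at 3100 with the others at or below 545.27.

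Regions confined to resistant replicate 3 and susceptible replicate 3 mostly ranked in the upper part of their lists, with some close to the calling threshold. Their median score was 671 in the former and 435 in the latter, with lowest values of 88.46 and 80.19, and the lower of the 2 score percentiles had a median of 74.2. Lengths had a median of 1178 bp, and 14 of the 60 reached 2000 bp. The longest, 27201993 to 27228628, spanned 26636 bp, of which 26530 bp lay under 2 peaks in resistant replicate 3 and 25329 bp under 13 peaks in susceptible replicate 3. It is 1 of 6 regions among the 10 highest-ranked that lay beyond the empty interval and also reached 3100 in resistant replicate 3. These 6 were 27182557 to 27194490, 27198450 to 27201978, 27201993 to 27228628, 27233793 to 27235158, 27240292 to 27246673 and 27247673 to 27252365. Susceptible replicate 3 reached 3100 in them too, except in 27198450 to 27201978, where its score was 2189.87. The 10th-ranked, 27252519 to 27256080, had 2811.92 and 1947.16. The other 3 lay earlier, at 27010277 to 27012452, 27012697 to 27014866 and 27112417 to 27114879, and reached 3100 in both.

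The block differed from its surroundings in every library, though by different amounts. In the 1 Mb before it, peaks covered 4.63, 5.36 and 9.24 kb in the resistant and 4.38, 4.82 and 8.25 kb in the susceptible libraries. In the 1 Mb after it they covered 0.246, 1.75 and 5.71 kb, and 0.777, 0.583 and 4.99 kb. Coverage per Mb in the block was 10.7 to 30.5 times that of both flanks together in the 4 sparse libraries and 89.3 and 89.4 times in resistant replicate 3 and susceptible replicate 3. The right flank held 1 to 5 peaks in the former and 13 and 10 in the latter, so ratios to it rest on few peaks. The flanks together had 2.44 to 3.55 kb per Mb in the sparse libraries and 7.48 and 6.62 in the filled pair. The rest of Z before its far end had more, at 13.6 to 14.6 kb per Mb in the former and 27.4 and 28.8 in the latter. The block was chosen on cover in the pair, so nothing is read from the larger ratios there. Each list had 1 peak at 3100 in the left flank and none in the right, and no peak of either flank was wider than 1395 bp.

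**Figure D4:**
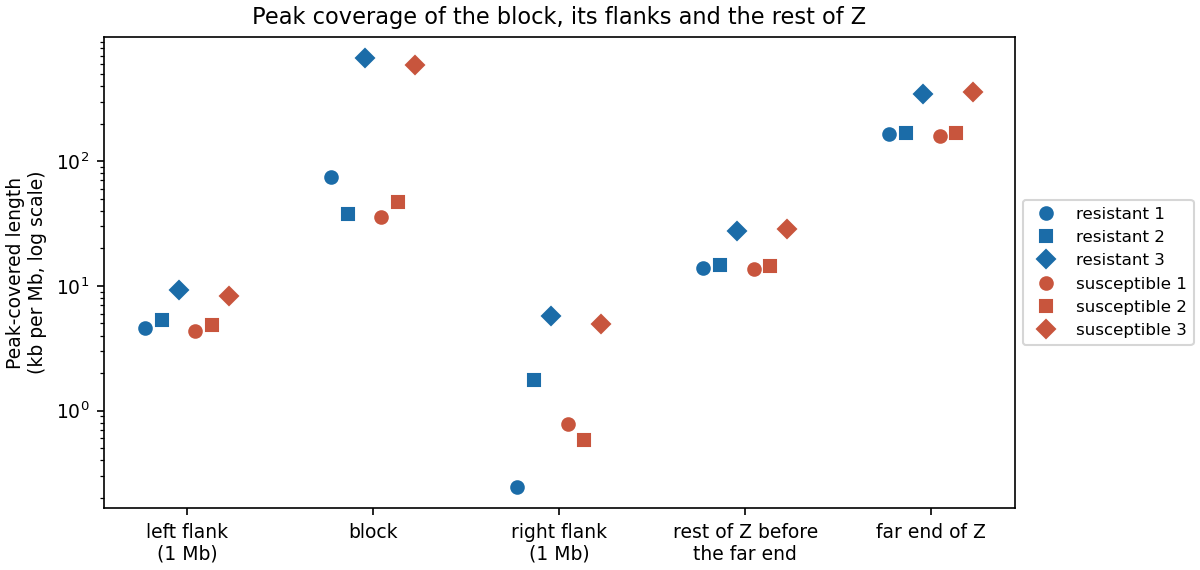
The vertical axis gives peak-covered length in kb per Mb on a log scale for the left flank, the block, the right flank, the rest of Z before its far end and the far end, with 1 point per library. The block is the highest segment for resistant 3 (668) and susceptible 3 (591), and the other 4 libraries have 35.9 to 74.4 there, below their 159 to 168 in the far end.

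Taken over long segments, the excess of the filled libraries over the others was smaller elsewhere on Z. The lower of the pair stood above the highest of the others by a factor of 1.54 in the left flank, 2.85 in the right flank and 1.88 on the rest of Z before 73 Mb. In the far end of Z, from 73 Mb on, the factor was 2.04, against 7.95 in the block. The block was chosen on this contrast, so nothing is read from its larger factor. The left flank held 20 merged regions, with 5 common to all libraries and 3 confined to the pair, and the right flank 15 regions, with 0 and 5.

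Against 219 other windows of its length on Z before the far end, the block ranked 1st by covered length in resistant replicate 3 and in susceptible replicate 3. In the other libraries it ranked 8th and 15th (resistant replicates 1 and 2) and 15th and 12th (susceptible replicates 1 and 2) of 220. The block was chosen for its cover in the filled pair, so nothing is read from its rank or factor in them. The windows were laid from its first base, so they frame the block whole and may cut other domains. Median windows had 1.74 to 4.41 kb, so the block was among the better covered windows in the sparse libraries too. The far end of Z was not cut into windows. Peaks there covered 343 and 359 kb per Mb in the filled pair and 159 to 168 kb per Mb in the others. The highest other window of the filled libraries, 18.15 Mb before the block, had 80.55 and 87.4 kb in them and 31.0 to 36.1 kb in the rest. In the 13 other windows whose mean over the 6 lists was at least 20 kb, the lower of the pair exceeded the highest of the others by factors of 1.05 to 2.53. Sparse windows could show larger factors. At 5.61 Mb before the block the pair had 4.29 and 3.43 kb and the others at most 0.351 kb, a factor of 9.78, and at 7.92 Mb after its start the pair had 0.390 and 1.20 kb and the others 0. The lowest factor among the 13 came from the window 1.65 Mb before the block, where coverage was 44.2, 44.3 and 47.0 kb in the resistant and 44.7, 44.3 and 47.4 kb in the susceptible libraries. The size of the difference between these libraries thus varied among densely covered windows, and in this window it was small.

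**Figure D5:**
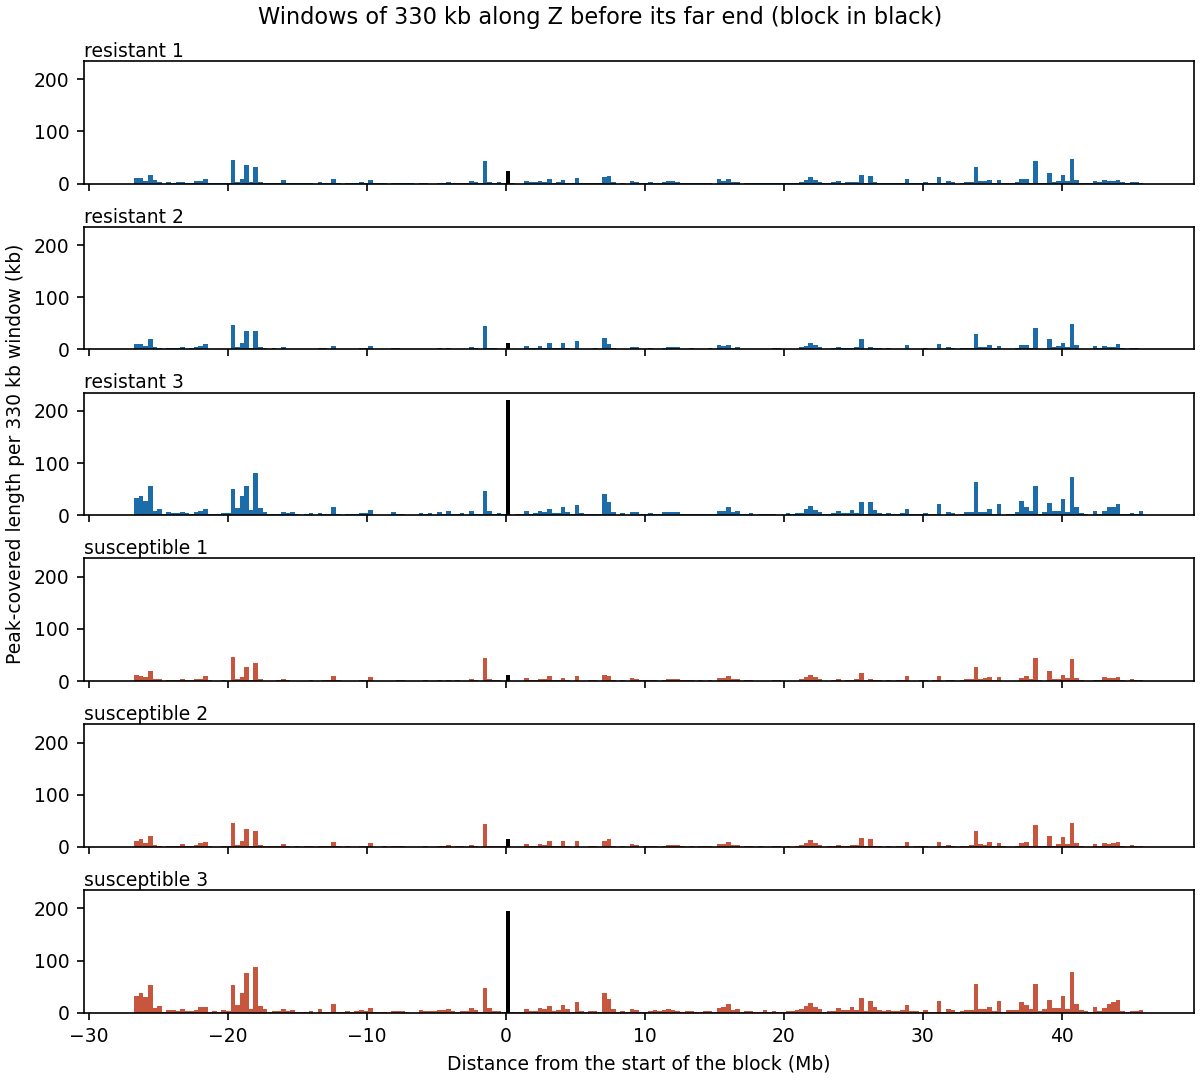
Bars give the peak-covered length in kb of 220 windows of 330 kb along Z before its far end. They are placed by their distance in Mb from the block's start, with 1 panel per library and the block in black. The block stands at 220.4 kb in resistant 3 and 195 kb in susceptible 3, above all other windows shown. In the other libraries it stands at 11.9 to 24.6 kb, where other windows shown reach 46.1 to 49.2 kb.

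Finally, the groups the study was designed around were compared. The block held 52.7 ± 56.0 peaks in resistant and 54.0 ± 64.1 in susceptible libraries (mean ± SD, n = 3 each), a difference of -1.33 peaks (exact permutation test, two-sided, p = 0.8). Covered length was 85.8 ± 117 kb in resistant and 74.1 ± 105 kb in susceptible libraries, a difference of 11.7 kb (n = 3 each, exact permutation test, two-sided, p = 0.6). The groups overlapped in both measures, with and without the 1 filled library that each contained. The block was chosen for the high cover of these filled libraries. Permutations that put both of them in the same group give far larger differences than those observed. The outcome of both tests was thus largely set by that choice, and nothing is read from it. Within the filled pair, the resistant library had 25.3 kb more cover and 11 peaks fewer, and between single libraries there is no replicate to judge this by. Without that pair the difference was 4.92 kb (2 against 2, exact p = 0.667, where 0.333 is the smallest possible).

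The flanks gave no larger contrast. Covered length was 6.41 ± 2.48 against 5.82 ± 2.11 kb in the left flank (exact permutation test, two-sided, p = 0.6) and 2.57 ± 2.82 against 2.12 ± 2.49 kb in the right flank (exact p = 0.7), resistant first and n = 3 each. Over the 6 comparisons, which include peak numbers of the flanks, Benjamini-Hochberg adjusted values were 0.96 to 1. With 3 libraries against 3 the exact test cannot go below 0.1, so it could not have shown a difference at 0.05. In the block and in both flanks its limit was higher still. There the filled libraries had the most cover and the most peaks, and they lay in opposite groups. Nothing is read from the flank tests either. The labels do not say outright that sample numbers are separate birds. Each p-value is the share of relabellings with a difference at least as large, so it speaks only of these libraries.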

How the data were processed

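MeDIP-seq was applied to liver DNA of 6 samples. Per the submitters' processing notes, cutadapt, Bowtie2 and galGal4 were used. Per the labels' protocols, DNA was extracted with phenol and chloroform and read in pairs on an Illumina HiSeq. Each immunoprecipitated library has 1 peak list from the authors, whose names record calling with MACS against the matching input at p = 1e-08, without pooling. Not given in the sources used here are versions and the handling of duplicate and multiply mapped reads, which can change coverage in repeats. The deposited score, from 80.0 to 3233.06, is not scaled between libraries and rises with depth. Reads were not used, and the 6 inputs enter only through the authors' calls.

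Positions were counted from 1. Covered length was cut at segment edges, and peaks were counted whole. Regions are merged overlapping or touching peaks. A score percentile is the rank within a library's own list. Replicates were numbered in order of deposition and pair no samples. Groups were compared by exact two-sided permutation of the difference of means. Named regions were, by rule, those in all 6 libraries, the 10 highest-ranked of those in sample numbers 26 and 14 only (by the lower score percentile), and each list's first, last and widest peaks and longest gaps. Highest-scoring peaks tied at 3100 were left out of the text. The block, lists and rules were chosen with earlier results of these data known. Python 3.11.15, NumPy 2.4.6 and pandas 2.3.3 were used, and merging and tests were checked on lists with known answers. Alternatives were score minima, equal list lengths, other edges, flanks, bins and joins, and leaving out libraries. No sequence is shown, since no galGal4 genome was used.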

Additional observations from a re-analysis of the deposited data

How the results depend on the processing

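All alternatives were planned. Group differences (resistant minus susceptible) had no stable sign. In the block each group held 1 filled library, so the library left out largely set the sign, and nothing is read from it. For peak number, leaving out 1 library gave -33.5 to 35.7, and the sign turned to positive without resistant replicate 1 (12.0), resistant replicate 2 (17.5) and susceptible replicate 3 (35.7). It also turned in the 2 against 2 comparison without sample numbers 26 and 14 (3.5). For covered length, leaving out 1 library gave -55.6 to 72.2 kb, with a negative sign without resistant replicate 3 (-55.6), susceptible replicate 1 (-19.4) and susceptible replicate 2 (-17.7). The left flank ranged from -0.821 to 1.81 kb (negative without resistant replicate 3 and, at -0.121, susceptible replicate 1) and was -0.415 kb with a flank of 2 Mb. The right flank ranged from -1.12 to 1.89 kb (negative without resistant replicate 3, susceptible replicate 1, at -0.216, and susceptible replicate 2, at -0.313). Exact p stayed between 0.4 and 1 under all of these, where a p under 0.05 was out of reach by design. Regions confined to the pair numbered 60 to 63 with 1 of the other libraries left out, 61 at scores from the pooled median of 193.59, 63 with equal list lengths and 72 where a peak had to cover 50% of a region. They numbered 8 when peaks up to 500 bp apart were joined and 184 in windows of 1000 bp, which change the unit counted. Regions in all 6 libraries numbered 4 at the pooled median score, 4 at 50% cover and 14 in windows of 1000 bp. Bins confined to the pair numbered 19 at the pooled median score, 25 for 5 kb and 5 for 20 kb, and 11 or 12 under the other settings. Median midpoint distances were 1163 and 1352 bp for peaks of at most 1500 bp and 1338 and 1365 bp between peak starts (resistant, then susceptible replicate 3). The Jaccard index of that pair was 0.854 with equal list lengths. Because depth is unknown, a missing peak may be a missed one, and scores of 3100 or more cannot be ordered.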
